A study of Mus musculus with 16 samples.

Results

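DNA methylation of growing mouse oocytes was compared between 2 size classes, 50–55 μm and 60–65 μm in diameter, by reduced representation bisulphite sequencing (RRBS). In RRBS the enzyme MspI cuts at CCGG, short GC-rich fragments are treated with bisulphite, and a cytosine that is still read as cytosine counts as a methylated call. The autosomes were divided into fixed tiles of 500 bp, and a tile was kept if at least 5 of its CpG cytosines had at least 5 calls each in all 4 libraries, A and B of either class. This left 28619 tiles of the 49484 that were measured in at least 1 of the 6 RRBS libraries of the series. All oocytes were wild-type, of C57BL/6 background in the labels and C57BL/6Babr in the study's methods, and came from prepubertal mice with no treatment named, those of 60–65 μm from an older age range that overlaps that of 50–55 μm. They were picked by hand, washed to remove somatic cells and pooled by diameter, so that every library is a pool and size stands in for stage of growth. Whether A and B of a class came from separate animals is not stated, and the spread between them may be partly technical. The series also holds RRBS of 40–45 μm oocytes, 1 library of post-bisulphite adapter tagging (PBAT) of 60–65 μm oocytes and RNA-seq of separate pools, which were used here to describe the tiles.

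Oocytes leave the primordial pool almost devoid of DNA methylation and receive it while they grow, without cell division. The enzyme that places it is DNMT3A, which needs its partner DNMT3L. This complex is repelled by methylation of histone H3 at lysine 4, which marks active promoters and many CpG islands, and is drawn to H3K36me3, which SETD2 lays down behind elongating RNA polymerase. In mature oocytes methylation therefore lies mostly over transcribed gene bodies. It also covers the control regions of imprinted genes that keep the mother's mark in the embryo, known as maternal germline differentially methylated regions (gDMRs).

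The 5 stretches below, from GRCm38 and read on the plus strand, show what such a tile contains. Zfr2, Ptpdc1 and Jag2 are shown for the largest called gains inside genes, Dgkg for the largest gain among tiles that began under 5%, and Rnf220 as a tile in the body of an expressed gene that stayed unmethylated. Capitals mark the CpGs of which at least 1 cytosine had 5 calls or more in all 4 libraries.
Zfr2 chr10:81240001-81240054: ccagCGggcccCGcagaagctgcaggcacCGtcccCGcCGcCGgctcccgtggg
Ptpdc1 chr13:48593112-48593302: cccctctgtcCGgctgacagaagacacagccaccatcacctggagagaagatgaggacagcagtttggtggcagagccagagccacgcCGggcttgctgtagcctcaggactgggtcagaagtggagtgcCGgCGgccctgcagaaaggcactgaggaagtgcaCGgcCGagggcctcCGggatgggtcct
Jag2 chr12:112909097-112909149: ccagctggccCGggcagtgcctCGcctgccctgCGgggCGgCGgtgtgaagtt
Dgkg chr16:22548502-22548559: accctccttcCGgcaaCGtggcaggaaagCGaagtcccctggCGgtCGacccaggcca
Rnf220 chr4:117304311-117304492: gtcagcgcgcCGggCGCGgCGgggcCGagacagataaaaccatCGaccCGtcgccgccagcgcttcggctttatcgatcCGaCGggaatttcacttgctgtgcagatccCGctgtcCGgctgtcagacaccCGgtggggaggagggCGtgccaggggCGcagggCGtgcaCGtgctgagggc

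The Zfr2 stretch lies in a coding exon and holds 6 measured cytosines, the Ptpdc1 stretch lies in an intron and holds 9, and the Jag2 stretch lies in a coding exon and holds 5. At the 9 cytosines of Ptpdc1 the median was 28.6% and 9.57% in libraries A and B of 50–55 μm and 83.3% and 85.0% in those of 60–65 μm. At the 16 measured cytosines of the intronic Rnf220 stretch, with 23 CpGs in 182 bases, the highest single value in any of the 4 libraries was 8%. The Dgkg stretch, in a coding exon, had 5 measured cytosines that ranged from 0 to 2.27% in library A of 50–55 μm and were at 0 in library B, and their medians at 60–65 μm were 40.0% and 39.7%.

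The libraries differed in depth and quality before any comparison of size. On chromosomes 1 to 19 they held 29275627 to 40078743 calls, and 594179 to 903094 cytosines reached 5 calls. Library B of 50–55 μm stood apart. In tiles that gained methylation, 42.7% of its cytosines with 10 to 49 calls were read as entirely methylated or entirely unmethylated, against 13.1% in library A of the same size at nearly the same mean (21.6% and 23.2%), and 4.60% and 8.84% at 60–65 μm. Its cytosines of 5 to 9 calls averaged 11.5%, against 4.62% at 20 to 49 calls. It was also high at the starts of genes that somatic cells methylate and germ cells do not: over 14 tiles at 10 such genes the mean was 13.4% in this library, 1.47% in library A of 50–55 μm, and 3.63% and 1.53% in A and B of 60–65 μm. It was the highest of the 4 libraries at 9 of the 10 genes, Hormad1 being the exception, with 31.8% at Sycp1 and 27.9% at Mael, both genes of meiotic or germ cell function. Library A of 50–55 μm was most unusual below the coverage limit, where cytosines of 1 to 4 calls averaged 50.1%, and such cytosines were not used. Among those used, it was also raised at 5 to 9 calls, with 6.37% against 4.09% at 10 to 19 calls. The same 2 values were 7.18% and 7.02% in library A of 60–65 μm and 7.08% and 7.37% in its library B. No tile lay in the paternally methylated region before H19. Whether DNA of other cells or copies made by PCR played a part in library B was not tested, and the counts by the 10-point rule below are also given without it where they lead a comparison.

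Methylation was higher at 60–65 μm. The mean over all tiles was 4.07% and 5.19% in libraries A and B of 50–55 μm, and 6.60% and 6.83% in A and B of 60–65 μm. The class means were 4.63% ± 0.793 and 6.72% ± 0.166 (SD, n = 2), a difference of 2.09 percentage points, and both larger oocyte libraries lay above both smaller ones. In the 14410 tiles with at least 10 cytosines in each library, which are denser in CpG (46.1 against 35.3 per tile over all), the difference was 0.740 points. A two-sided exact permutation test of the 4 libraries gave p = 0.333, which is the smallest value that 2 against 2 libraries allow. Median tiles hardly differed, lying between 0.433% and 0.758% in all 4 libraries, since most tiles were unmethylated throughout: 21809 stood under 5% in every library. The change was in the upper part of the distribution. Tiles at 50% or more numbered 402 and 668 at 50–55 μm, and 1652 and 1793 at 60–65 μm.

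**Figure D1:**
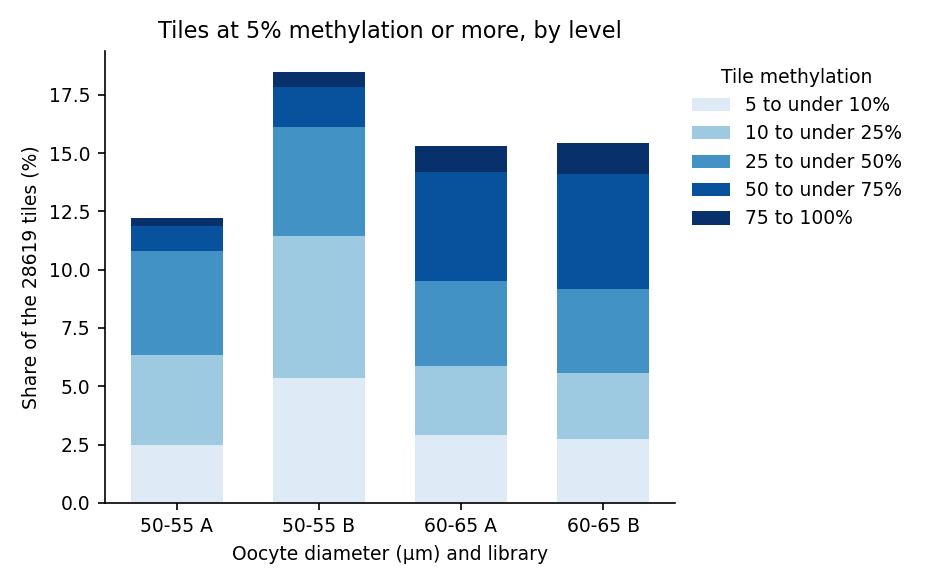
Stacked bars give the share of the 28619 tiles (vertical axis, percent) at each level of methylation in the 4 libraries (horizontal axis), with tiles under 5% left out. Tiles at 25% or more made up 5.89% and 7.01% of all at 50–55 μm and 9.45% and 9.88% at 60–65 μm, while the band from 10 to under 25% shrank.

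By the stricter description, a tile gained methylation if both libraries of 60–65 μm stood at least 10 points above both libraries of 50–55 μm. This held for 1917 tiles, or 6.7% of those measured, and the opposite held for 11, or 0.0384%. In the 1917 tiles the mean rose from 25.2% and 23.9% in A and B of 50–55 μm to 52.5% and 55.2% in A and B of 60–65 μm. No tile lost 20 points by this rule, whereas 1070 gained 20 and 325 gained 30. With any gap above 0 the counts were 6526 and 3165. With 1 library left out fewer pairings have to pass, so that both counts can only stay or rise. The gained count was then 2101 to 2360. The lower count was 20 without library B of 50–55 μm, and 47 and 23 without A or B of 60–65 μm. It was 896 without library A of 50–55 μm, which left only library B for that class. The 85 tiles just inside the limit, with a gap of 10 to 11 points, rose by 17.9 points on average, and the 74 just outside, with 9 to 10, by 18.2.

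edgeR's quasi-likelihood test on methylated and unmethylated calls, in the 4399 tiles with a mean of at least 5%, called 1338 gains (30.4% of those tested) and 3 losses (0.0682%) at an adjusted p under 0.05. The 3 called losses were high only in library B of 50–55 μm, at 25.3%, 44% and 40.9% against 1.46%, 0 and 9.01% in library A, and at or under 0.694% in both libraries of 60–65 μm. The tile with 44% lay in an intron of Lingo3, a gene of leucine-rich repeats at 0 RPKM, and the other 2 lay in no gene of the RNA table. None of the 3 met the 10-point rule, and they were singled out after their values were seen. Of the called gains, 1203 also met the 10-point rule, which is 89.9% of the calls and 62.8% of the tiles of that rule. The adjusted p values of the calls lay in the narrow range from 0.0393 to 0.0499, and the count was not stable. It was 0 without library A of 60–65 μm (883 gains at an unadjusted p under 0.05) and 0 without library B of 60–65 μm (487 by the same measure), 2481 without library B of 50–55 μm, and 1891 with 572 losses without library A of 50–55 μm. limma on the arcsine square root of the percentages called 1611 gains and 2 losses, whereas edgeR called 0 gains with its older quasi-likelihood method (1955 at an unadjusted p under 0.05), with calls capped at 20 per cytosine (1915) and with no minimum on the mean (1658). A tile without a call is therefore not shown to be unchanged.

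The gained tiles were already on their way at 50–55 μm. Of the 1917, 1692 stood under 10% in both libraries of 40–45 μm, where their means were 2.69% and 2.07%, and these 1692 were at 24.2% and 23.0% at 50–55 μm and at 51.5% and 54.2% at 60–65 μm. Few tiles met a strict rule for a later start: only 3 stood under 5% in both libraries of 50–55 μm and at 25% or more in both of 60–65 μm. These were tiles in Dgkg, a diacylglycerol kinase (4.37% and 0 against 39.2% and 38.9%), in Rnf26, a ring finger protein (4.14% and 0.568% against 34.8% and 35.8%), and in 2900026A02Rik (3.38% and 0.424% against 25.7% and 41.8%). The Dgkg and Rnf26 tiles lay near the starts of further genes (Gm15651, C1qtnf5 and Gm20444) nested in the locus. Library B of 40–45 μm had 30.6% in the Rnf26 tile, and its library A 0.892%. These 3 tiles were singled out after their values were seen. The rule leaves out tiles just past a limit, such as a UTR tile of Gnas with 6.86% and 1.96% against 41.4% and 41.5%, and looser limits were not counted.

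The gain depended on the level at the start. To keep the noise of 1 measurement out of both the level and the gain, tiles were sorted by one library of 50–55 μm and the gain was measured from the other. Sorted by library A, tiles under 5% changed by −0.512 points, those at 5 to 10% rose by 6.56, those at 10 to 25% rose by 18.7, those at 25 to 50% by 23.5, those at 50 to 75% by 4.40, and those at 75% and over changed by −1.75. Sorted by library B, the same bands changed by 0.434, 4.13, 12.7, 21.7, 14.7 and 5.09 points. Under both sortings the band from 25 to 50% gained most. Tiles that started high when sorted by A had been high before, at 76.3% in 40–45 μm oocytes, and lay to 89.9% of their length in sequence masked as repeats.

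The largest called gains inside genes are described next, 1 tile for each of 12 genes. In all 12, both libraries of 60–65 μm lay between 60.3% and 98.3% and both of 50–55 μm between 4.83% and 37.1%, so that the classes did not overlap in any of them. Each rested on 5 to 14 cytosines a library. The edgeR adjusted p ranged from 0.0393 to 0.0496 across them.

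The tile in Zfr2, which encodes a zinc finger RNA-binding protein, lay in a coding exon at chr10:81240001-81240500 and had 27.8% and 16.7% at 50–55 μm and 77.1% and 98.3% at 60–65 μm, a gain of 65.5 points. It is also the most thinly measured of the 12, with 36 to 72 calls a library, and in library B of 50–55 μm each of its 6 cytosines had 6 calls that were all methylated at 1 site and all unmethylated at the other 5. The intronic tile in Ptpdc1, a protein tyrosine phosphatase gene (chr13:48593001-48593500, at a GENCODE transcript start inside the gene), had 32.4% and 9.94% against 78.5% and 80.2%. In Jag2, a ligand of the Notch receptors and at 29.7 RPKM the most highly expressed of the 12 genes, the coding exon tile at chr12:112909001-112909500 had 23.8% and 10.0% against 71.6% and 74.2%.

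The steadiest of the 12 was an intronic tile of Ttc7, a tetratricopeptide repeat gene (chr17:87375501-87376000), with 21.6% and 19.3% against 76.4% and 75.4%, where replicates differed by less than 3 points and the classes by 55.4. Mnt, a repressor that pairs with MAX, had 35.7% and 15.0% against 73.6% and 87.0% in a coding exon. Ppargc1b, a transcriptional coactivator, had 34.8% and 19.8% against 77.2% and 83.6% in an intron. Gtf2i, a general transcription factor, had 31.7% and 26.2% against 70.2% and 93.6%. Mbd6, of the methyl-CpG-binding domain family, had 20.6% and 14.6% against 76.6% and 63.8%.

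Of the remaining genes, Mri1, an enzyme of methionine salvage, gained 52.9 points, Ephb4, a receptor tyrosine kinase for ephrins, 52.8, the predicted gene Gm2301, where GENCODE names Gm16064 and Tbx3os1, 55.6, and the scaffold protein gene Grasp, in a coding exon near its start, 51.9. In 40–45 μm oocytes all 12 tiles stood under 8% in every library that measured them except Ephb4, at 14.6% in library B. The PBAT library, which measured 11 of them, gave 47.3% at Grasp and 62.0% to 86.3% at the rest. RNA of the 12 genes at 50–55 μm was between 0.261 and 29.7 RPKM, and 5 of the 12 lay at 1 RPKM or more, as did 40.4% of the 4335 genes with a body tile.

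**Figure D2:**
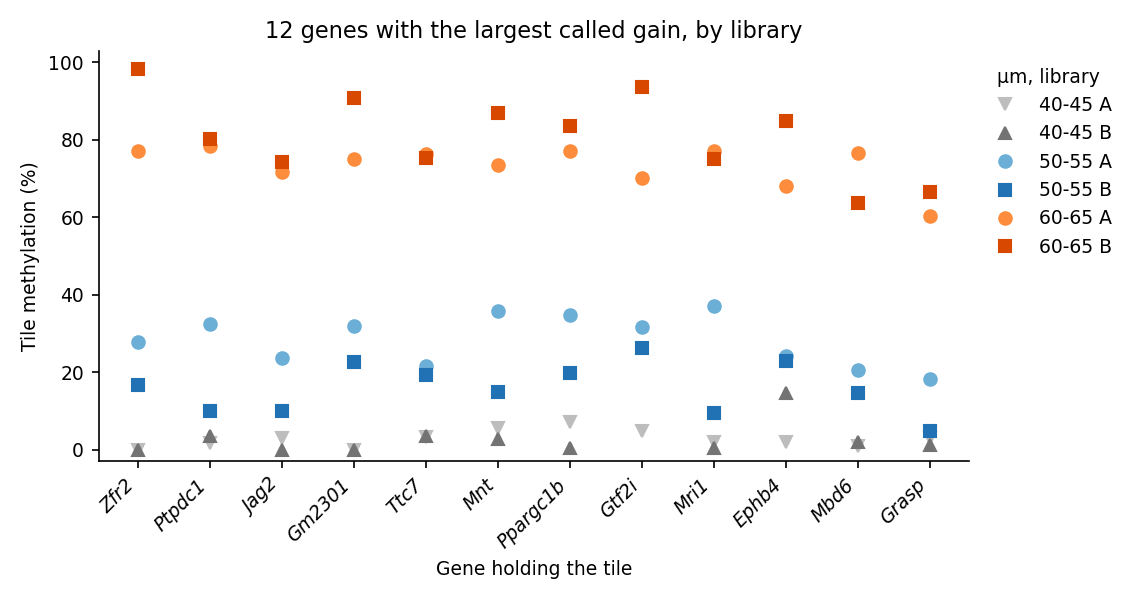
Methylation (vertical axis, percent) of 1 tile in each of the 12 genes with the largest called gain (horizontal axis) in each RRBS library of the 3 size classes, 1 point per library. At 60–65 μm the tiles stood between 60.3% and 98.3% and at 50–55 μm between 4.83% and 37.1%. The Gtf2i tile has no value in library B of 40–45 μm.

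Some genes gained in most of their measured tiles. Tnrc18, a trinucleotide repeat gene, held 8 gained tiles of 10 measured, with means over the 10 of 22.5% and 19.7% at 50–55 μm and 45.9% and 48.6% at 60–65 μm. Gnas, the imprinted gene of the stimulatory G protein alpha subunit, held 8 of 13 (13.2% and 12.4% against 31.9% and 37.0%). Myo18a, an unconventional myosin, held 6 of 8 (20.3% and 16.6% against 40.4% and 41.7%). The predicted gene Gm20388 held the most, 27 of 139, but its annotated span of over 4 Mb on chromosome 8 covers many other genes.

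Place relative to genes separated the tiles further. Each tile was placed by the gene coordinates of the RNA table: within 1 kb of a gene start, inside a gene body, within 5 kb after a gene end, or elsewhere. Of the 1917 gained tiles, 1637 lay in gene bodies, which is 20.7% of the 7891 tiles there, against 84 of 14733 tiles (0.570%) near starts that lay in no other gene. The body tiles had means of 8.28% and 10.5% at 50–55 μm and 15.9% and 16.5% at 60–65 μm, a gain of 6.83 points with a range of 5.45 to 8.21 over the 4 pairings of libraries. The 2455 body tiles with at least 10 cytosines, which hold 40.2 CpGs on average against 25.8 over all body tiles, gained 3.30 points, and 10.1% of them met the rule. Tiles near starts stayed low, with 0.872% and 1.07% against 1.06% and 1.20%, and their gain of 0.158 was not larger than the spread of the pairings, −0.0118 to 0.327.

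Starts that lie inside another gene can be crossed by its transcript. The 2152 tiles at such starts had 1.57% and 1.65% at 50–55 μm and 2.47% and 2.65% at 60–65 μm, a gain of 0.951 that was positive in all 4 pairings (0.816 to 1.09), and 67 of them (3.11%) gained by the 10-point rule. RNA was taken from the most highly expressed gene that overlaps the tile, which can be the nested gene rather than the surrounding one. By this RNA, 3 of 470 (0.638%) gained under 0.1 RPKM, 13 of 362 (3.59%) from 0.1 to 1 RPKM, 44 of 1050 (4.19%) from 1 to 10 RPKM and 7 of 263 (2.66%) at 10 RPKM and over. Tiles elsewhere, in no gene and not just after one, were comparatively high without a common direction of the mean, with 9.83% and 13.0% against 11.7% and 11.6%, and the sign of their difference changed with the library taken (−1.36 to 1.89). They had already averaged 9.32% and 9.27% at 40–45 μm. Even so, 107 of the 3386 (3.16%) gained by the 10-point rule, close to the share at starts inside another gene. In the 457 tiles up to 5 kb after a gene end the gain was 1.23 points (0.0663 to 2.39), and 22 of them (4.81%) gained by the rule. Without library B of 50–55 μm, which leaves fewer pairings to pass, the rule held for 8.25% of all tiles, for 1989 body tiles (25.2%), 105 near starts outside other genes (0.713%), 74 at starts inside another gene (3.44%), 24 after genes (5.25%) and 168 elsewhere (4.96%).

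RNA of the gene divided the body tiles. RNA levels are the mean of the 2 RNA-seq libraries of 50–55 μm oocytes, in RPKM, a read count divided by exon length and by library size, and where genes overlap the more highly expressed one was taken. In bodies under 0.1 RPKM, 3005 tiles had 2.32% and 4.90% at 50–55 μm and 3.72% and 3.38% at 60–65 μm, a difference of −0.0624 that changed sign between pairings (−1.53 to 1.40). From 0.1 to 1 RPKM the gain was 7.38 points (5.49 to 9.27), from 1 to 10 RPKM it was 13.4 (12.1 to 14.8), and at 10 RPKM and over it was 12.5 (11.3 to 13.8). The last 2 classes did not differ beyond the spread of their pairings. The share of tiles that gained was 1.997%, 21.3%, 39.1% and 37.7% in the 4 classes, and 2.66%, 26.8%, 46.4% and 46.9% without library B of 50–55 μm. On each of the 19 autosomes taken alone, bodies of at least 1 RPKM gained more than bodies under 0.1 RPKM, by 13.3 ± 1.56 points (SD over the 19, which share the same libraries).

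**Figure D3:**
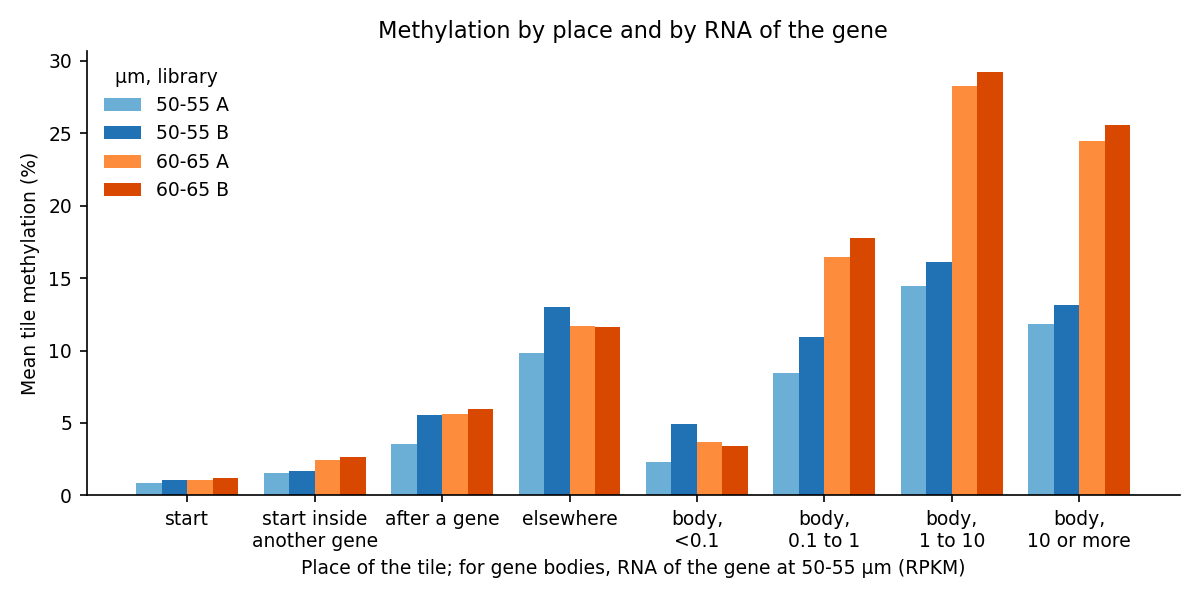
Mean methylation of tiles (vertical axis, percent) by place and, for gene bodies, by RNA of the gene at 50–55 μm in RPKM (horizontal axis), with 1 bar per library. Both libraries of 60–65 μm stand far above both of 50–55 μm in bodies of 0.1 RPKM and over, whereas bodies under 0.1 RPKM and tiles elsewhere show no common direction.

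Among genes, 4335 had a body tile. The 1196 with at least 1 gained body tile had a median of 2.37 RPKM, and 864 of them (72.2%) were at 1 RPKM or more, against a median of 0.0859 RPKM and 889 of 3139 (28.3%) for the others. Without library B of 50–55 μm, 1001 of 1406 genes with a gained body tile (71.2%) were at 1 RPKM or more. Across all 4335 genes, which rest on the same libraries, the correlation of log2 RNA with the mean gain was 0.456 (Pearson) and 0.482 (Spearman). Across the 1753 genes of at least 1 RPKM alone it was −0.0383 and −0.0247. Their RNA was also nearly the same in both size classes. The median log2 ratio of 60–65 to 50–55 μm, with 0.1 RPKM added, was 0.08 in the 864 expressed genes with a gained tile and 0.07 in the 889 without, and 863 of the 864 changed less than 2-fold. The correlation of this ratio with the gain was 0.0206 (Pearson) and 0.0230 (Spearman) over the 1753 genes.

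Inside expressed genes the gain grew with distance from the start. In genes of at least 20 kb and 1 RPKM, tiles within 0.5 kb of the start had 0.805% and 0.959% at 50–55 μm and 0.948% and 1.11% at 60–65 μm. At 2 to 4 kb inside the gene they had 3.12% and 3.59% against 6.62% and 6.97%, and at 8 to 16 kb 12.7% and 14.3% against 25.01% and 26.1%. From 16 kb on the levels were flat, at 31.3% to 33.1% in the 60–65 μm libraries. CpG number changed along the same axis, with 49.3 CpGs a tile within 0.5 kb of the start, 38.0 at 2 to 4 kb and 25.7 at 16 to 32 kb. Distance and CpG number were not separated here. The share of tiles that gained rose from 0.836% at 1 to 2 kb to 45.4% at 16 to 32 kb, and from 1.39% to 52.8% without library B of 50–55 μm. Relative to its own raw level at 50–55 μm, each distance class beyond 2 kb changed by a similar factor, from 1.78 at 4 to 8 kb to 2.03 at 2 to 4 kb. The ranges of these 2 factors over the pairings overlap, and no level of smaller oocytes was taken off. In genes under 0.1 RPKM the libraries of 60–65 μm stood between A and B of 50–55 μm in each distance class beyond 4 kb.

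**Figure D4:**
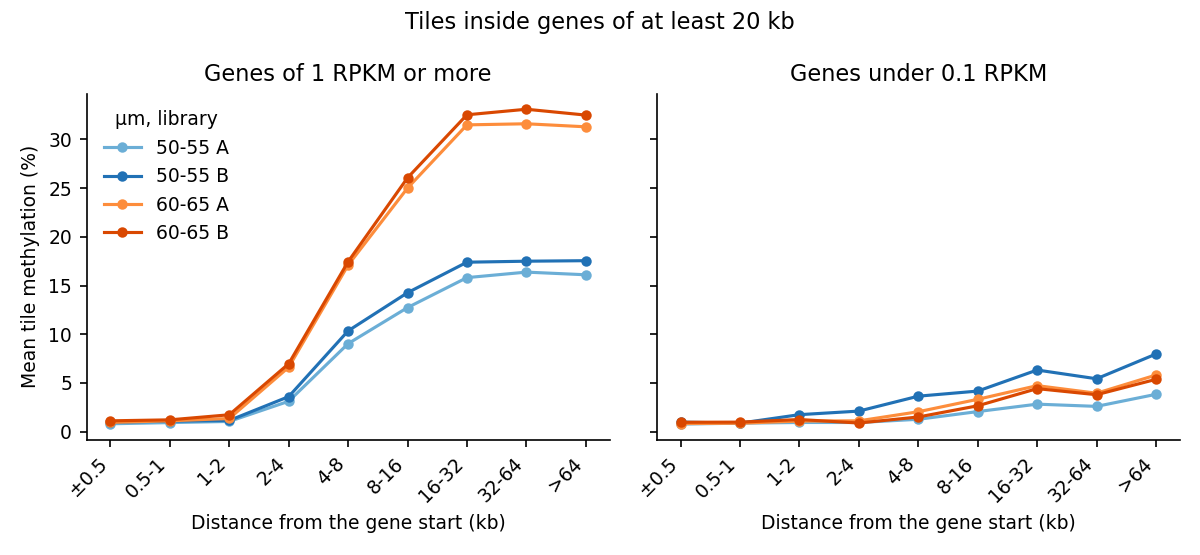
Mean methylation (vertical axis, percent) of tiles inside genes of at least 20 kb by distance from the gene start (horizontal axis, kb), for genes of 1 RPKM or more (left) and under 0.1 RPKM (right), with 1 line per library. In expressed genes the libraries of 60–65 μm separate from those of 50–55 μm beyond 2 kb, and in silent genes library B of 50–55 μm lies highest beyond 1 kb. Tiles far from the start also hold fewer CpGs than tiles near it, which the figure does not show.

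Sequence differed between gained tiles and the rest. The 1917 gained tiles had a mean of 18.6 CpGs in 500 bp and 56.4% GC, against 36.5 CpGs and 62.5% GC in the 26702 others, 64.9% against 41.8% overlapped a coding exon, and 21.7% against 50.4% a UTR. To hold place and RNA alike, the 3049 body tiles of genes of at least 1 RPKM were sorted by CpG number. With 10 to 19 CpGs the means were 20.3% and 22.5% at 50–55 μm and 39.9% and 41.1% at 60–65 μm, and with 40 CpGs or more they were 2.05% and 2.36% against 3.98% and 4.52%. The share that gained fell from 55.9% to 6.47% between these groups, and from 66.5% to 7.01% without library B of 50–55 μm. The absolute gains were 19.1 and 2.04 points. The ratio of the raw levels, 60–65 to 50–55 μm, was 1.89 with 10 to 19 CpGs (1.78 to 2.02 over the 4 pairings) and 1.93 with 40 or more (1.68 to 2.21). It lay between 1.85 and 1.93 in all 5 density groups. At 40–45 μm libraries A and B already had 3.52% and 3.49% with 10 to 19 CpGs, and 0.943% and 0.890% with 40 or more. The likeness of the ratios holds for raw levels only, since this earlier level was not taken off.

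**Figure D5:**
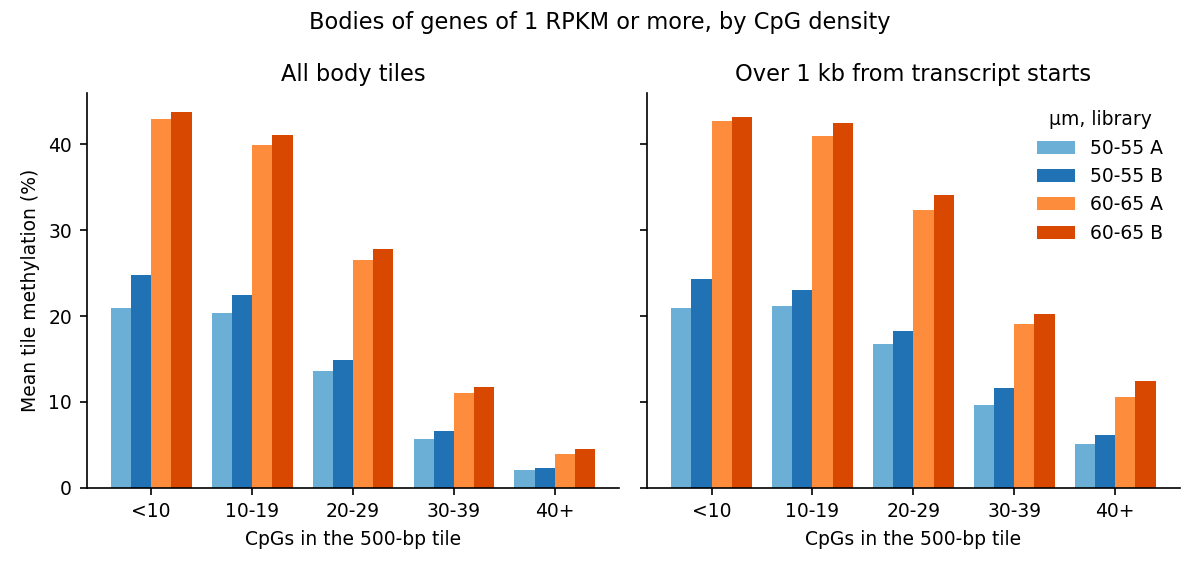
Mean methylation (vertical axis, percent) of body tiles of genes of at least 1 RPKM by number of CpGs in the tile (horizontal axis), with 1 bar per library, for all such tiles (left) and for those over 1 kb from each GENCODE transcript start (right). Levels and gains fall as CpGs become dense in both panels, less steeply in the right one.

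Part of this went with transcript starts that the RNA table does not list. Of the 1087 expressed-body tiles under 5% in all 4 libraries, 822 (75.6%) lay within 1 kb of a GENCODE transcript start, against 358 of the 1185 gained ones (30.2%). In the 1617 expressed-body tiles farther away, a selection made after this was seen, 51.1% gained, and the means were 18.6% and 20.5% against 36.3% and 37.8%. CpG density still divided them: with 10 to 19 CpGs 57.7% gained, by 19.6 points, and with 40 or more 19.2% of 78 gained, by 5.85 points. Without library B of 50–55 μm these shares were 68.6% and 20.5%. Those overlapping a coding exon gained 19.5 points (18.2 to 20.9 over the pairings) and those without 14.4 (12.2 to 16.5).

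Short motifs were counted on both strands of each tile. CGCGC was present in 64.1% of all tiles, in 23.3% of the gained ones and in 67.1% of the others. CNCCGCC, with any base but A at N, was present in 61.9% of all tiles, in 26.0% of the gained ones and in 64.5% of the others. Both motifs contain CpG, can share bases and are commoner in CpG-dense tiles, so tiles of 20 to 39 CpGs in expressed bodies over 1 kb from transcript starts were compared: 35.8% of 190 tiles with CGCGC gained against 45.0% of 258 without, and 33.9% of 183 with CNCCGCC against 46.0% of 265 without. Leaving out library B of 50–55 μm gave 42.1% against 55.4% for CGCGC and 41.0% against 55.8% for CNCCGCC. Tiles with CGCGC had on average 28.3 CpGs here and those without 24.2, and for CNCCGCC the means were 27.6 and 24.8. Tiles with either motif were thus still denser in CpG, and a match is a string of letters, not a known binding site.

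Tiles close to one another often gained together. Of 297 tiles next to a gained tile, 222 (74.7%) had gained as well. The share was 58.0% at 1 to 2 kb, 34.3% at 2.5 to 5 kb and 23.3% at 5.5 to 10 kb. For comparison, 6.7% of all tiles gained, 20.7% of body tiles and 38.9% of body tiles of genes of at least 1 RPKM. Most gained tiles lay in gene bodies, and neighbours were not matched for place or RNA. Without library B of 50–55 μm the share next to a gained tile was 288 of 344 (83.7%). Reads from opposite ends of a fragment can fall in adjacent tiles, so adjacent tiles are not fully independent.

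Of the 501 body tiles of genes of at least 10 RPKM, 193 stood under 5% in all 4 libraries, against 21809 of all 28619 tiles. In Rnf220, a ubiquitin ligase gene (11.2 RPKM), 6 tiles averaged 0.815% and 0.785% at 50–55 μm and 1.24% and 1.47% at 60–65 μm, and 4 each lay in Alkbh5, an RNA demethylase, Arfip1, an arfaptin, Elavl2, an RNA-binding protein, and Usp7, a deubiquitinase. The means of these 5 genes were at or under 1.64% in each library. Of the 4 Arfip1 tiles, 2 lie inside Arfip1 only in the coordinates of the RNA table, and GENCODE places just the predicted gene Gm37240 there. Many of the tiles lay within 1 kb of a GENCODE transcript start, among them all 4 of Usp7, while 3 of Rnf220 were 3973 to 12473 bases away from one.

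At the other end, 45 tiles stood at 75% or more in all 4 libraries, and 43 of them lay to at least 50% in repeat-masked sequence. Inside genes there were 16. Rsrc1, a splicing-related gene, held 2, with means of 77.2% and 84.7% at 50–55 μm and 83.5% and 88.5% at 60–65 μm, and Filip1, Cmc1, AC132131.1 and 4930534B04Rik held 1 each, as did others with the same count. All 6 tiles of these genes were intronic, and GENCODE names Anks1b at the AC132131.1 tile and Cep128 at the 4930534B04Rik tile. Tiles at 50% or more in both 40–45 μm libraries, 249 in all, did not move in a common direction, with 69.4% and 74.4% against 71.1% and 71.7%.

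The 11 tiles that were lower at 60–65 μm overlapped no coding exon and no UTR, and their repeat-masked share averaged 61.7%, against 9.61% over all tiles. In edgeR 0 of them were called and 3 had an unadjusted p under 0.05, and the smallest adjusted p was 0.0594. Only 3 of the 11 had a gene of the RNA table at the tile, namely Gm13718 (15.8% and 55.6% against 2.27% and 1.68%, the larger value in library B of 50–55 μm), 4930548K13Rik (83.5% and 85.9% against 72.6% and 53.0%) and Gm5724 (26.0% and 35.6% against 13.8% and 14.7%). At the Gm13718 tile GENCODE names Btbd18 and Gm28635. The most deeply read were 2 adjacent tiles at chr17:39843001-39844000, with 45901 to 149105 calls a library, in the noncoding gene Gm26917 of GENCODE, which lies beside a copy of ribosomal RNA sequence. They had 22.7% and 24.5% at 50–55 μm and 12.1% and 10.4% at 60–65 μm in the first tile, and 25.4% and 24.97% against 10.95% and 10.4% in the second. These 2 were singled out after their values were seen, their adjusted p values were 0.0819 and 0.0611, and the counts are uncertain, since ribosomal sequence exists in many copies. At 40–45 μm they had 13.5% to 20.9%, and PBAT gave 21.4% and 18.3%.

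Gene lists chosen for their roles in oocytes gave mixed results. Of 24 genes with a maternal gDMR, 14 had tiles within 2 kb of their start, 23 tiles in all, and 10 of these (43.5%) gained by the rule, against 6.7% of all tiles, in 7 genes. Without library B of 50–55 μm 11 of the 23 gained. edgeR called 8 of the 11 tested, against 30.4% of all tiles tested. The median gain over the 23 tiles was 1.51 points, against 0.0950 over all tiles. Plagl1, a zinc finger gene, had 29.2% and 29.8% against 57.4% and 64.3% over 2 tiles. Zrsr1, a splicing factor gene, had 20.5% and 19.5% against 48.1% and 46.6% over 3. Nap1l5, a nucleosome assembly gene, had 9.83% and 10.5% against 28.3% and 37.7% in 1, and Nnat, the proteolipid neuronatin, 7.01% and 3.93% against 18.7% and 18.8% in 1. Impact, a regulator of translation, went from 28.6% and 26.7% to 48.7% and 49.3% and met the rule without an edgeR call. Library B of 40–45 μm already had 19.9% in the Nnat tile and 27.9% in the Impact tile, against 3.30% and 2.08% in its library A, so that the value at Nnat was as high as at 60–65 μm. Nespas, an antisense transcript of the Gnas locus, also met the rule without an edgeR call, with 22.3% and 5.10% against 51.7% and 70.7%. Mcts2 was at 23.1% and 55.0% at 50–55 μm, a spread as large as the change, and at 51.8% and 55.4% at 60–65 μm over 2 tiles, of which 1 gained. The 7 others, Kcnq1, whose gDMR lies inside the gene at the start of an antisense transcript, Gnas, Grb10, Inpp5f, Zfp787, Zfp777 and Socs5, stood at or under 2.42% in all 4 libraries near the starts that the table lists.

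All 39 Hox genes were measured, with 107 tiles, and no tile gained by the 10-point rule, against 6.7% of all tiles and 0.570% of those near starts outside other genes. Their means were 0.736% and 1.68% at 50–55 μm and 1.25% and 0.787% at 60–65 μm. Among 21 oocyte genes, 7 had tiles, and 1 of their 14 tiles gained (7.14%, near the 6.7% of all tiles): in Kit, the receptor of stem cell factor, 2 tiles averaged 12.1% and 4.88% against 25.5% and 24.0%. Dnmt1, the maintenance methyltransferase, had 9.31% and 6.71% against 12.6% and 15.0% over 3 tiles, which was above both smaller libraries without meeting the rule. Gdf9, an oocyte growth factor at 541 RPKM, stayed at or under 2.07% in its 1 tile, and Ooep, a gene of the maternal complex under the oocyte membrane, at or under 2.11% in its 1. In the remaining genes library B of 50–55 μm was the highest of the 4: Lhx8, a transcription factor of early oocytes, had 7.30% and 18.2% against 15.6% and 11.9% over 5 tiles, Padi6, of the peptidylarginine deiminase family, 3.38% and 11.9% against 10.7% and 10.9%, and Mos, a kinase of meiotic arrest, 0 and 20% against 0.218% and 3.39%. Without that library 2 of the 14 oocyte gene tiles gained, and still no tile of the Hox genes or the germline gene starts. Of the 14 tiles at germline gene starts none gained, and their median change was −2.69 points, which rests on library B of 50–55 μm described above.

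RNA of the enzymes that set methylation was measured in separate pools of the same sizes. Dnmt3a had 2.87 and 3.53 RPKM at 50–55 μm and 3.76 and 3.48 RPKM at 60–65 μm. Dnmt3l had 6.21 and 5.35 against 11.3 and 8.25 RPKM, with both larger oocyte libraries above both smaller ones. Kdm1b, a demethylase of H3K4, had 84.2 and 87.4 against 65.5 and 73.7 RPKM, and Setd2 had 5.82 and 6.52 against 6.48 and 6.30 RPKM. All 9 oocyte markers lay between 11.6 and 875 RPKM in these pools, and the 8 granulosa, 4 theca and stroma and 3 blood markers at or under 1.25 RPKM. The summed level of the granulosa markers was nevertheless higher in both larger pools, at 1.90 and 1.58 RPKM against 2.86 and 2.47 RPKM. Cyp19a1 made the largest change, with 0.502 and 0.515 against 1.25 and 1.04 RPKM. Fshr and Kitl were also above both smaller pools in both larger ones, while Amh, Foxl2, Inha, Inhba and Fst were not. The part of granulosa RNA in the RNA differences was not tested.

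PBAT gave a second reading at 60–65 μm, from other oocytes and without MspI, in 1 library. It measured 1650 of the 1917 gained tiles and gave a mean of 58.5%, and 1634 of them (99.0%) lay above both RRBS libraries of 50–55 μm. Over all 26077 tiles measured this share was 78.2%, since PBAT also gave 3.59% in tiles that were under 5% in all 4 RRBS libraries. At 25% or more stood 1588 of the gained tiles (96.2%), against 2716 (10.4%) of all. Of the 11 lower tiles, 1 lay above both 50–55 μm libraries.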

How the data were processed

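Oocyte pools were processed by the authors as follows. RRBS libraries were amplified by PCR and read as single ends, trimmed with Trim Galore 0.3.5 and aligned to GRCm38 with Bismark 0.14.0 per the submitters' processing notes, and no removal of duplicate reads is stated for them. The deposited files give, per strand and CpG cytosine, counts of methylated and unmethylated calls and the percent methylated, which the authors did not smooth or pool. The PBAT reads were deduplicated. The authors' RNA table holds RPKM from TopHat2 2.0.9 alignments, normalised to exon length and library total.

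A tile's value is the mean percent over its cytosines of at least 5 calls, recomputed from the counts. Library totals lay between 29275627 and 40078743 calls. Calls per tile set its counting precision, which copies made by PCR, not recognisable here, overstate. Methylated and unmethylated calls were summed per tile and tested with edgeR 4.0.16 (quasi-likelihood, 1 term per library, Benjamini-Hochberg, threshold 0.05) in tiles of at least 5% mean, with limma 3.58.1 as an alternative, in R 4.3.3. Other steps used Python 3.11.15, and the code was tested on simulated data. Coding exons, UTRs and transcript starts are from GENCODE vM21, and sequences and repeat masking from RefSeq GRCm38.p6. RNA values, 50–55 μm unless stated, received no test.

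Named genes were the 12 with the largest called gain, up to 5 with the largest loss by the 10-point rule, since edgeR called losses in fewer than 12 genes, a rule that only 3 genes met, the 5 with most gained tiles, the 5 with most tiles at 75% or more and the 5 of at least 10 RPKM with most body tiles under 5%, ties broken by called tiles or alphabetically, and the measured gDMR and oocyte list members. Members of the Hox and germline gene lists, which the rule also covered, are described as groups. A gene that met this rule is not reported here. Members and lists were chosen with earlier results of these data known. Lists used a window of 2 kb around starts (gDMR genes) or genes (Hox and oocyte genes), and 500 bp at germline gene starts. The alternatives were coverage, tile size and place, call pooling and capping, the minimum mean, other tests and fits, and leaving out each library.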

Additional observations from a re-analysis of the deposited data

Results flagged for a closer look

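The X chromosome was outside the comparison, and 23 of its 665 tiles (3.46%) gained at least 10 points in every pairing of libraries, with 0 losses. Its means were 7.44% and 10.2% in A and B of 50–55 μm, and 9.53% and 9.55% in A and B of 60–65 μm. The 60–65 μm libraries lay between those of the smaller oocytes, and the classes overlap in the mean.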

How the results depend on the processing

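The edgeR counts moved with the settings. With at least 10 cytosines per tile there were 328 gains, and with all 6 RRBS libraries in 1 fit 602. With calls capped at 20 per cytosine there were 0 gains and 0 losses (1915 and 34 at an unadjusted p under 0.05), with no minimum on the mean 0 and 0 (1658 and 309), and with the older quasi-likelihood method, added after seeing the data, 0 and 0 (1955 and 26, smallest adjusted p 0.0528). Losses were 5 with 10 calls per cytosine, 7 with cytosines measured in all 4 libraries, 7 with tiles shifted by 250 bp and 6 with tiles of 1000 bp. Leaving out 1 library gave 0 to 2481 gains and 0 to 572 losses.

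The letters A and B are only numbers in common: the A minus B differences of the 2 classes had a correlation of −0.0389 over 4399 tiles, and a replicate block gave 0 gains and 0 losses (1851 and 79 at an unadjusted p under 0.05).

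Counts by place, RNA, CpG number, motif, neighbour and list without library B of 50–55 μm were added after seeing the data. By the 10-point rule, tiles with 10 cytosines gave 339 gains and 2 losses. Losses were 4 with 10 calls per cytosine, 7 with shifted tiles, 7 with pooled calls and 4 without repeat-masked tiles. A gap above 0 gave 6526 and 3165, and one of 20 points 1070 and 0. Leaving out 1 library, which can only keep or raise these counts, gave 2101 to 2360 gains and 20 to 896 losses.

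With 10 cytosines per tile the difference of the means was 0.740 points, and without 1 library 1.53 to 2.65. Starts inside another gene gained 0.827 with 10 calls and 0.663 with 10 cytosines per tile, and bodies 3.30 with 10 cytosines. Over 1 kb from GENCODE transcript starts, an alternative added after seeing the data, bodies of 0.1 to 1, 1 to 10 and at least 10 RPKM gained 9.37, 17.4 and 17.8 points. Without 1 library these classes gained 6.13 to 8.63, 12.6 to 14.3 and 11.9 to 13.2 over all body tiles, bodies under 0.1 RPKM changed by −1.36 to 1.23, and tiles elsewhere by −1.32 to 1.85. Bodies as a whole gained 5.73 to 7.93 and starts inside another gene 0.860 to 1.04. The causes of these shifts were not tested. The 12 named tiles kept their direction wherever a refit gave them a value, passing the threshold in 63 of these values and missing it in 73. With 10 calls per cytosine only 5 of them, and with 10 cytosines per tile only Grasp, had a value, and none was computed for shifted or 1000-bp tiles.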
